A study of Mus musculus with 6 samples.

Results

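Tnf and 9 genes of the NF-kappaB pathway, which are Tnfaip3, Nfkb1, Nfkb2, Rela, Relb, Nfkbia, Nfkbie, Icam1 and Vcam1, were followed in mammary glands at involution day 2. The members were all probe sets that the platform annotation ties to a single symbol, that symbol being 1 of these 10 genes. The rule took 18 of 45101 probe sets, and these covered 9 of the 10 genes. Nfkb1 had 0 probe sets of this kind and was not analysed here. Tnf, Rela, Relb and Icam1 had 1 probe set each, Tnfaip3, Nfkb2 and Nfkbie had 2 each, Vcam1 had 3 and Nfkbia had 5.

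The study asked how Rac1, a small GTPase, acts in the mammary epithelium, and compared Rac1-/- with WT glands on Affymetrix mouse arrays, 1 array per mouse. Rac1-/- mice carried floxed Rac1 alleles (Rac1fx/fx), a YFP reporter that Cre switches on and the WAPiCre transgene, in which the whey acidic protein promoter drives Cre in luminal epithelial cells, starting at mid-pregnancy. WT mice carried the same floxed alleles and the same reporter without Cre, and the paper describes them as littermates. Each group held 3 separate mice, which were Nas496, Nas497 and Nas518 for Rac1-/- and Nas478, Nas483 and Nas484 for WT. Single-mouse values below keep this order within each group. Cre acts in luminal cells, so the stromal, vascular, immune and myoepithelial cells in the whole-gland RNA of Rac1-/- mice keep Rac1. In such bulk samples fewer cells of a type and less RNA per cell cannot be told apart.

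NF-kappaB is a family of paired transcription factors that inhibitor proteins hold in the cytoplasm until a signal such as tumor necrosis factor sets off their destruction. Several of its targets close a negative feedback loop, since they encode new inhibitor or enzymes that switch the signal off, and others place adhesion molecules on endothelial cells for passing leukocytes. In the mouse mammary gland the pathway is known to act in branching and alveolar development and to be active again after weaning, when dying epithelium is cleared and leukocytes enter.

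The sequences below are the proximal promoters of the ligand gene, of the main feedback genes and of the adhesion gene that stood apart between the groups in the array data. They come from RefSeq with the GRCm38.p6 build, run 5′ to 3′ on the strand of the gene and cover 250 bases before and 50 after the start of the gene. The windows are chr17:35201958-35202257 on the minus strand for Tnf, chr10:19015361-19015660 on the minus strand for the more upstream start site of Tnfaip3, chr12:55492598-55492897 on the minus strand for Nfkbia and chr9:21015690-21015989 on the plus strand for Icam1. Capitals mark bases covered by the letters GGNNNTTCC, a pattern of the NF-kappaB binding motif, on either strand, and matches that overlap run together.
Tnf: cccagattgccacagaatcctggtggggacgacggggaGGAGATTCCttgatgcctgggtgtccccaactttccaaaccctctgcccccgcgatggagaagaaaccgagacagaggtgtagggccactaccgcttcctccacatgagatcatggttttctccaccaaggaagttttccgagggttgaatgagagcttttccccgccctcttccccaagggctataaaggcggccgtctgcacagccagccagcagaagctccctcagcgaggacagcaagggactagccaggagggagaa
Tnfaip3: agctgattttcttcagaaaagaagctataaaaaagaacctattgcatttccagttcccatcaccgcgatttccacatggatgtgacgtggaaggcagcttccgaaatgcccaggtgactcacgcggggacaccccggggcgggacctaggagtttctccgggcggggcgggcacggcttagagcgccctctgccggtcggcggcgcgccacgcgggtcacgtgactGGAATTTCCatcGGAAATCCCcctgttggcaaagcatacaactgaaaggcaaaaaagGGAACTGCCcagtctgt
Nfkbia: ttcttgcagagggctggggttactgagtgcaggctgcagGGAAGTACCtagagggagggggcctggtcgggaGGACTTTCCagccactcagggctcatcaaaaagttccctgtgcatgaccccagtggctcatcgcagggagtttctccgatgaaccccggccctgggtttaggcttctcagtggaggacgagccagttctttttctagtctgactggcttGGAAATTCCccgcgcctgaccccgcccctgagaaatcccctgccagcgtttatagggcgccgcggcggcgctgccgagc
Icam1: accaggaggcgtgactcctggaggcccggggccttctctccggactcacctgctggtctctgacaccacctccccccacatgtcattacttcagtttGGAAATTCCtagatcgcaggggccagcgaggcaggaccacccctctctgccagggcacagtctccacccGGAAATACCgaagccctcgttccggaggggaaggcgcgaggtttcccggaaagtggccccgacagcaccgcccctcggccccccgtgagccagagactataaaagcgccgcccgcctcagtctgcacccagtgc
The Icam1 window held matches that began at -153 and -84 from the start, and the Nfkbia window held matches at -211, -178 and -29. The Tnfaip3 window held them at -24, -12 and 34, and the Tnf window held 1 at -212. Of 7 member genes with a promoter in the RefSeq table, 6 had at least 1 match, and Rela had none. Counted by window, since a gene can have several start sites, 9 of 10 member windows held the letters, beside 6070 of 32851 windows (18.5%) over all promoters of the same length. The members were chosen as genes and targets of this pathway, so a high share of matches can follow from the choice and tests nothing. Overlapping windows of Nfkb2 share a match, so the windows are not independent. A match describes the sequence and says nothing of binding in these glands.

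The authors deposited 1 linear intensity per probe set, scaled on each array to a trimmed mean of 100. The median intensity was 56.0 to 88.0 on Rac1-/- arrays and 40.6 to 71.5 on WT arrays, and the interquartile range of the log2 values ran from 1.23 to 2.85 over the 6 arrays. Scores on the first principal component (44.0% of the variance) were -51, 174 and 4.1 in Rac1-/- glands and -113, -115 and 101 in WT glands. Nas497 (Rac1-/-) and Nas484 (WT) thus lay at the high end, with Nas518 between them and the other mice. A measure of RNA quality, the 3' minus 5' log2 signal of the actin controls, was -0.42, -1.24 and -0.30 in Rac1-/- glands and 0.048, 0.033 and -0.17 in WT glands, with no overlap between the groups. The same measure on the Gapdh controls was -0.044, 0.18 and -0.058 in Rac1-/- glands and -0.037, 0.016 and 0.16 in WT glands, and the groups overlapped. Levels below are log2 intensities after quantile normalization, and a gene with several probe sets is represented by the one with the highest mean. Rac1 itself was at 9.51, 9.01 and 9.84 in Rac1-/- glands and 9.31, 9.50 and 8.97 in WT glands on the brightest of its probe sets. Another Rac1 probe set read 8.77, 8.34 and 8.14 in Rac1-/- glands and 8.74, 9.0 and 9.89 in WT glands. A dim further one, with 1 value at the floor, read 3.41, 3.31 and 0 in Rac1-/- glands and 4.95, 3.68 and 2.24 in WT glands. Since no source used here names the exons deleted, none of these probe sets checks the labels.

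Of the 9 measured members, 8 had a higher mean and 1 a lower mean in Rac1-/- than in WT glands, and 0 passed an adjusted p of 0.05 in limma. Over all 18194 genes 53.9% had a higher mean, and 0% passed the adjusted threshold. At an unadjusted p under 0.05 the count was 0 of 9 members, beside 4.05% of all genes in either direction. The median log2 difference (Rac1-/- minus WT, the log2 of the fold change) was 0.48 over the members and 0.060 over all genes. Icam1 was the 1 member whose Rac1-/- values all lay above the WT values, an arrangement that 5.41% of all genes showed, and no member lay wholly below, as 4.2% of all genes did. With 3 mice a group an exact two-sided permutation test cannot give a p below 0.1, and the number of arrays limits the precision of every value.

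**Figure D1:**
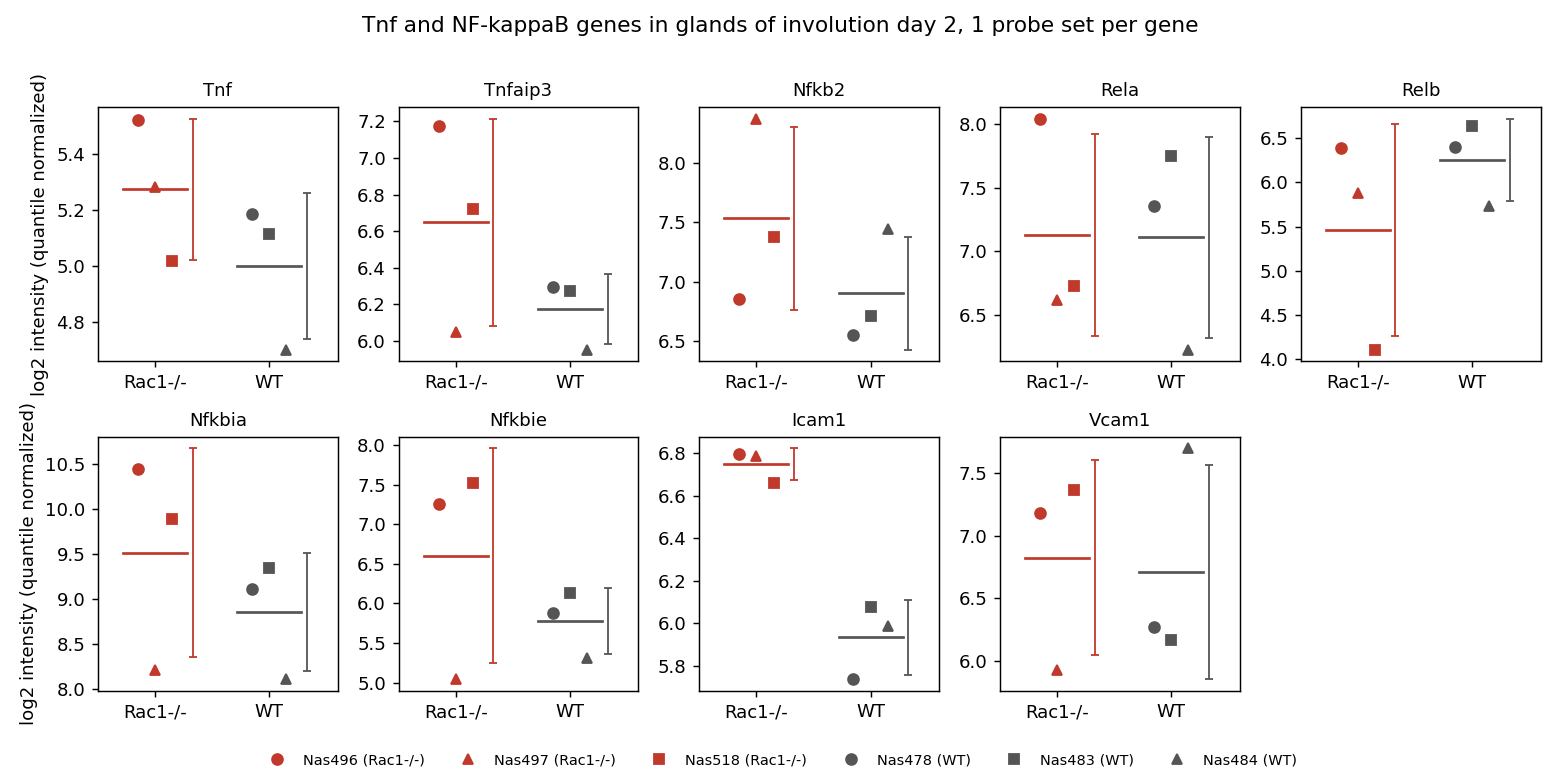
Log2 intensity (y axis, quantile normalized, a scale of its own in each panel) of the 9 measured members in the Rac1-/- glands (red, left) and WT glands (grey, right). Points are mice, horizontal lines are means and bars are 1 SD (n = 3 each). Icam1 is the panel in which the 2 groups do not overlap, with Rac1-/- mice between 6.66 and 6.80 and WT mice between 5.74 and 6.08.

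Tnf encodes tumor necrosis factor, a cytokine made mainly by macrophages and other leukocytes that switches NF-kappaB on. Its log2 intensity was 5.52, 5.28 and 5.02 in Rac1-/- glands, against 5.18, 5.11 and 4.70 in WT glands. The lowest Rac1-/- mouse, Nas518, lay below both Nas478 and Nas483, so the groups overlapped. Every Tnf level lay below the median of all probe sets, 5.96 on the same scale. Means were 5.27 ± 0.25 in Rac1-/- glands and 5.0 ± 0.26 in WT glands (SD, n = 3 each), a log2 difference of 0.27 (SE 0.43, limma adjusted p = 0.963). The overlap depended on the scaling. When arrays were scaled to a common median, or not normalized to each other, the Tnf fold change was 0.53 or 1.0 on the log2 scale, and the groups no longer overlapped. Without Nas496 or without Nas484 it was 0.15 or 0.13.

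Rela, Relb and Nfkb2 encode DNA-binding subunits. Rela is part of the dimer that acts downstream of tumor necrosis factor, and Relb pairs with the subunit that is cut from the Nfkb2 precursor in the noncanonical arm of the pathway. Rela was at 8.04, 6.62 and 6.73 in Rac1-/- glands and at 7.35, 7.75 and 6.23 in WT glands. The ranges of the groups overlapped over most of their length, and the log2 difference was 0.017 (SE 0.60, limma adjusted p = 0.998).

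Nfkb2 was at 6.86, 8.37 and 7.37 in Rac1-/- glands and at 6.56, 6.71 and 7.44 in WT glands. The highest WT mouse, Nas484, lay above 2 of the 3 Rac1-/- mice, and the log2 difference was 0.63 (SE 0.54, limma adjusted p = 0.946). The other Nfkb2 probe set read 6.76, 6.77 and 5.44 in Rac1-/- glands and 6.25, 4.89 and 5.42 in WT glands, a log2 difference of 0.80 (SE 0.59). Both estimates had the same sign, and both pairs of groups overlapped. The Nfkb2 value rested on Nas497, since without this mouse it was 0.21, and without Nas496 it was 0.97.

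Relb was the member with a lower mean in Rac1-/- glands. Its log2 intensity was 6.39, 5.88 and 4.11 in Rac1-/- glands, against 6.4, 6.64 and 5.73 in WT glands. The mouse Nas518 lay far below the other 5, which covered a common range. The log2 difference was -0.80 (SE 0.65, limma adjusted p = 0.946), and it was -0.12 (SE 0.53) without Nas518 and -1.26 (SE 0.68) without Nas496.

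The feedback genes Nfkbia, Nfkbie and Tnfaip3 are NF-kappaB targets whose products act against it. Nfkbia and Nfkbie encode inhibitor proteins that hold the dimers in the cytoplasm, and Tnfaip3 encodes a ubiquitin-editing enzyme that shuts down signaling from the tumor necrosis factor receptor. Nfkbia was at 10.45, 8.22 and 9.89 in Rac1-/- glands and at 9.12, 9.35 and 8.11 in WT glands. Nas496 and Nas518 lay above every WT mouse and Nas497 lay near the lowest of them, Nas484. This gave a log2 difference of 0.66 (SE 0.67, limma adjusted p = 0.949).

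Nfkbie was at 7.26, 5.04 and 7.52 in Rac1-/- glands and at 5.88, 6.13 and 5.31 in WT glands. Here too Nas496 and Nas518 lay above every WT mouse, while Nas497 was the lowest of all 6. The groups differed by a log2 value of 0.83 (SE 0.70, limma adjusted p = 0.946) on this probe set and 0.088 (SE 0.53) on the other Nfkbie probe set.

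Tnfaip3 showed the same order of Rac1-/- mice. It was at 7.18, 6.05 and 6.72 in Rac1-/- glands and at 6.29, 6.27 and 5.95 in WT glands, with Nas497 inside the WT range and the other Rac1-/- mice above it. The log2 difference came to 0.48 (SE 0.47, limma adjusted p = 0.948). The other Tnfaip3 probe set had an estimate of opposite sign, -0.25 (SE 0.59), with 5.05, 4.91 and 4.40 in Rac1-/- glands and 5.96, 5.08 and 4.06 in WT glands.

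These feedback genes shared a low value in Nas497 and, in WT, in Nas484, the arrays at the high end of the first principal component. Nas497 was the lowest Rac1-/- mouse for each of these genes, so leaving it out had to raise their log2 differences. Without Nas497 the log2 difference was 1.31 (SE 0.56, limma adjusted p = 0.997) for Nfkbia, 1.61 (SE 0.48, limma adjusted p = 0.997) for Nfkbie and 0.77 (SE 0.46, limma adjusted p = 0.997) for Tnfaip3. Without Nas496, the highest Rac1-/- mouse for Nfkbia and Tnfaip3, it was 0.19 (SE 0.70) for Nfkbia, 0.51 (SE 0.79) for Nfkbie and 0.21 (SE 0.51) for Tnfaip3. Leaving out Nas518 gave 0.38 (SE 0.74) for Nfkbie, and leaving out Nas484 (WT) gave 0.28 (SE 0.72) for Nfkbia. Nas497 and Nas484 were also left out together, which leaves 2 mice a group. Then 6 of the 9 members (Tnfaip3, Nfkb2, Nfkbia, Nfkbie, Icam1 and Vcam1) lay wholly higher in Rac1-/- glands and 1 (Relb) wholly lower. In that comparison 21.8% of all genes lay wholly higher and 17.4% wholly lower, and again 0 genes passed the adjusted threshold. The actin measure was lowest in Nas497 (-1.24), and its part in these values was examined only through the fit that holds it as a covariate. The groups did not overlap in this measure, so that fit cannot cleanly separate it from genotype. In that fit the log2 difference was 2.09 (SE 0.63, limma adjusted p = 0.760) for Nfkbia, 2.51 (SE 0.52, limma adjusted p = 0.620) for Nfkbie and 1.09 (SE 0.55, limma adjusted p = 0.777) for Tnfaip3.

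The 5 probe sets of Nfkbia differed in how far they separated the mice. On 1438157_s_at the log2 intensity was 10.16, 5.60 and 10.56 in Rac1-/- glands, against 9.65, 9.17 and 5.40 in WT glands. On 1420088_at it was 10.60, 5.04 and 9.47 in Rac1-/- glands, against 8.54, 9.79 and 5.83 in WT glands. Both probe sets were low in Nas497 and Nas484 and high in the other 4 mice, whatever the genotype, and their log2 differences were 0.70 (SE 1.52) and 0.31 (SE 1.51).

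On 1448306_at, by contrast, Nfkbia was at 8.60, 7.56 and 8.44 in Rac1-/- glands and at 7.87, 7.21 and 7.56 in WT glands, with a log2 difference of 0.65 (SE 0.49). On 1420089_at it was at 8.78, 6.28 and 6.5 in Rac1-/- glands and at 7.75, 7.92 and 8.07 in WT glands, a log2 difference of -0.73 (SE 0.70). The estimates thus pointed up on 4 probe sets and down on 1, and the groups overlapped on all 5. The parts of the transcript these probe sets read, and whether those ending in _s_at also take up RNA of related genes, were not analysed here.

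**Figure D2:**
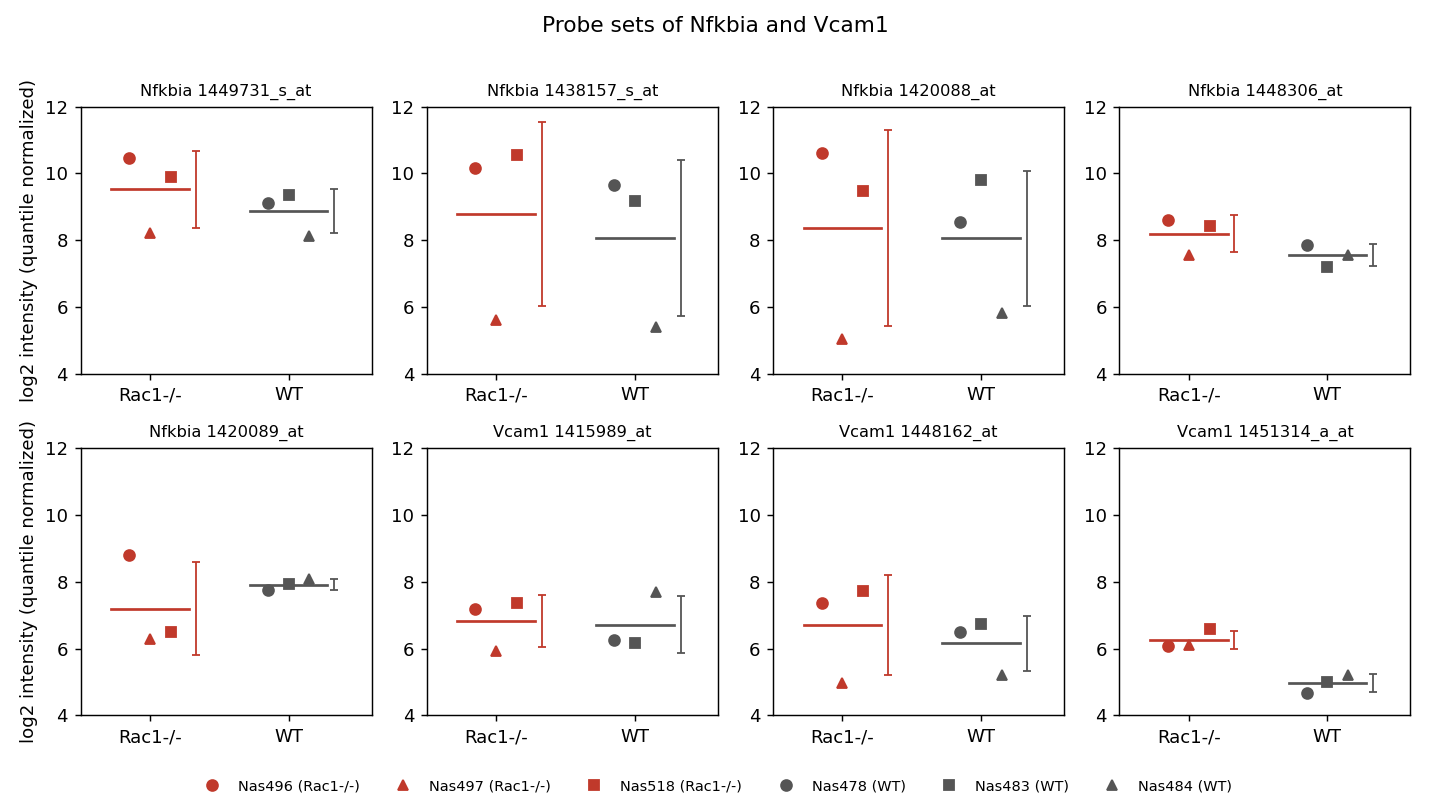
Log2 intensity (y axis, quantile normalized, 4 to 12 in every panel) on the 5 probe sets of Nfkbia and the 3 of Vcam1, in Rac1-/- glands (red, left) and WT glands (grey, right). Points are mice, lines are means and bars are 1 SD (n = 3 each). On Nfkbia 1438157_s_at and 1420088_at the triangles, Nas497 and Nas484, lie under all other mice, and on Vcam1 1451314_a_at every Rac1-/- mouse lies above every WT mouse.

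Icam1 encodes an adhesion molecule that leukocyte integrins bind on endothelium and on other activated cells. Its log2 intensity was 6.80, 6.79 and 6.66 in Rac1-/- glands, against 5.74, 6.08 and 5.99 in WT glands. All 3 Rac1-/- mice lay above all 3 WT mice, and the Rac1-/- mice were closer together than those of any other member. The means were 6.75 ± 0.075 in Rac1-/- glands and 5.93 ± 0.18 in WT glands (SD, n = 3 each). The log2 difference was 0.81 (SE 0.41, 95% interval -0.13 to 1.76), or 1.76-fold on the linear scale. It did not pass the adjusted threshold (limma adjusted p = 0.946), and over the other settings the adjusted p lay between 0.633 and 1.0. Before normalization between arrays, the deposited linear intensities were 108, 125 and 107 in Rac1-/- glands and 31.8, 50.9 and 72.8 in WT glands, also without overlap. The median intensities of these arrays were 56.0, 88.0 and 71.7 in Rac1-/- glands and 40.6, 45.5 and 71.5 in WT glands. The deposited values thus also carry differences in brightness between arrays. After quantile normalization the WT Icam1 levels lay close to the median of all probe sets, 5.96. The Icam1 fold change stayed between 0.72 and 1.21 on the log2 scale under every setting tried. The groups also did not overlap when scaled to a common median or not normalized. The remaining settings could not test this, since they left out mice or did not change which Icam1 values were compared. With the actin measure as a covariate, in a fit that cannot cleanly separate it from genotype, the Icam1 fold change was 0.75 (SE 0.52).

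Vcam1 encodes an adhesion molecule of activated endothelium and some stromal cells that the integrin of alpha4 and beta1 chains binds. On the probe set with the highest mean it was at 7.18, 5.93 and 7.36 in Rac1-/- glands and at 6.27, 6.17 and 7.70 in WT glands. The lowest of the 6 mice was Rac1-/- and the highest was WT, and the log2 difference was 0.11 (SE 0.61, limma adjusted p = 0.992). The Vcam1 probe set 1451314_a_at gave another picture. It read 6.08, 6.10 and 6.57 in Rac1-/- glands, against 4.68, 5.01 and 5.21 in WT glands, with every Rac1-/- mouse above every WT mouse.

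The log2 difference of Vcam1 on 1451314_a_at was 1.29 (SE 0.45, limma adjusted p = 0.957), with the groups apart under quantile normalization, scaling to a common median and no normalization. This probe set was dim in WT glands, where every level lay below the median of all probe sets, 5.96 after quantile normalization. The deposited linear intensities in WT glands were 8.28, 18.4 and 46.3. The third Vcam1 probe set, 1448162_at, read 7.38, 4.98 and 7.73 in Rac1-/- glands and 6.51, 6.73 and 5.22 in WT glands, a log2 difference of 0.54 (SE 0.81). All 3 estimates were above 0, and the groups overlapped on 2 of the 3 probe sets. Which transcripts of Vcam1 each probe set reads was not analysed here.

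Over the 18 member probe sets, 15 had a higher and 3 a lower mean in Rac1-/- glands, beside 46.8% of all 34958 probe sets with a higher mean. The 2 whose groups did not overlap, those of Icam1 and Vcam1 named above, compare with 4.27% of all probe sets in the same direction. The 1 at an unadjusted p under 0.05, Vcam1 1451314_a_at, compares with 1.72%. The adjusted p was 0.957 or more for every member probe set. Probe sets of a gene share its RNA, so these counts are not counts of independent measurements.

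**Figure D3:**
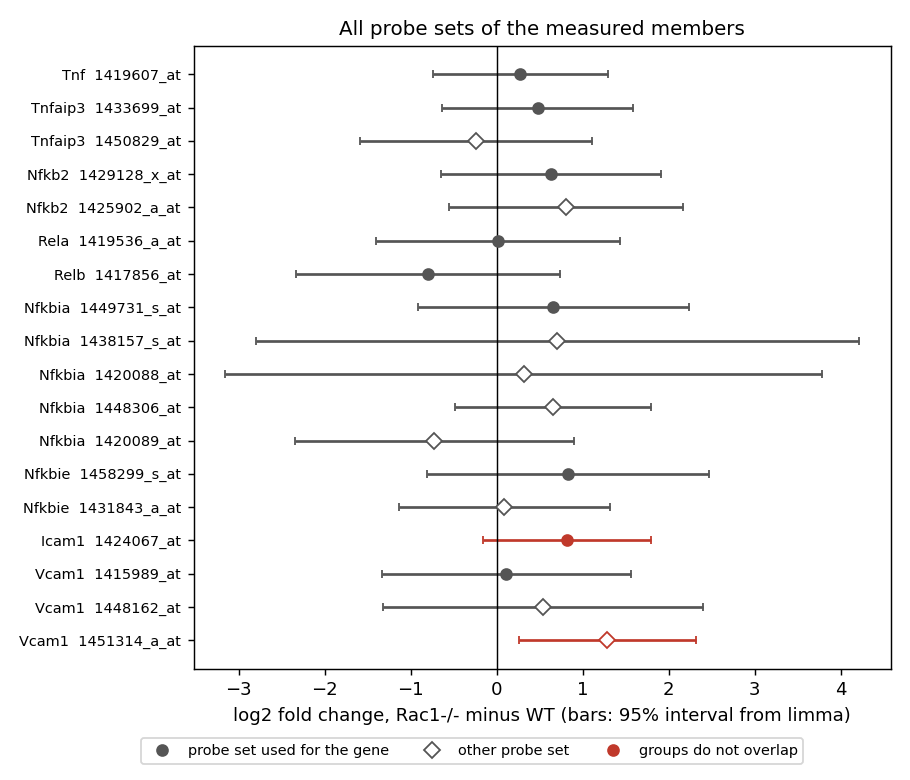
Log2 difference (x axis, Rac1-/- minus WT) of each of the 18 member probe sets, with 95% intervals from limma as bars (n = 3 mice each). Filled circles are the probe sets that represent their gene, open diamonds are the others, and red marks those whose groups do not overlap. The intervals of all but Vcam1 1451314_a_at (0.26 to 2.31) include 0.

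The members did not move together in every mouse. Nas496 (Rac1-/-) had the highest value of the 6 mice for 5 of the 9 genes (Tnf, Tnfaip3, Rela, Nfkbia and Icam1) and lay above the gene's mean over all mice for 8 of 9. Nas518 and Nas497 lay above it for 6 and 4 of 9. In WT, Nas478, Nas483 and Nas484 lay above the mean for 3, 3 and 2 of 9, and Nas484 was the lowest mouse for 4 genes (Tnf, Tnfaip3, Rela and Nfkbia). Within the Rac1-/- group the spread between the highest and lowest mouse ran from 0.14 for Icam1 to 2.47 for Nfkbie on the log2 scale, and within WT from 0.34 for Icam1 to 1.53 for Vcam1.

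**Figure D4:**
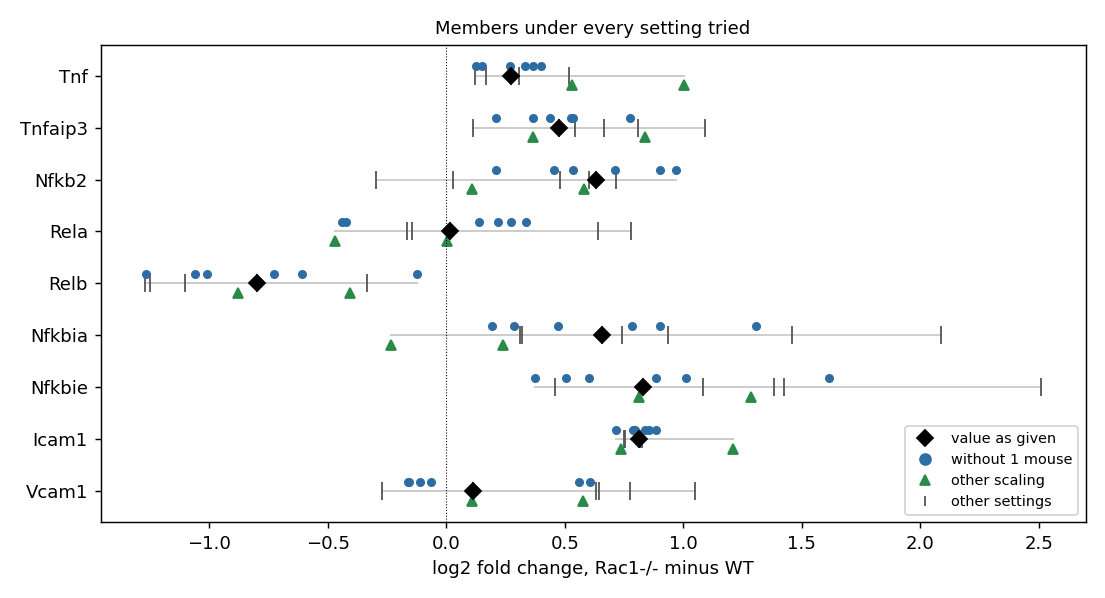
Log2 difference (x axis, Rac1-/- minus WT) of the 9 measured members under every setting tried. Black diamonds are the values given in the text, blue points leave out 1 mouse, green triangles use another scaling of the arrays and ticks are the remaining settings. Icam1 stays between 0.72 and 1.21, Relb stays below 0, and Nfkb2, Rela, Nfkbia and Vcam1 fall on both sides of 0.

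Genes of the wider pathway were described from lists of its parts. Genes without overlap in these lists stand beside 5.41% of all genes wholly higher and 4.2% wholly lower in Rac1-/- glands. Among 15 ligands and receptors, 8 had a higher and 7 a lower mean in Rac1-/- glands, with a median log2 difference of 0.074 and 0 past the adjusted threshold. Il1r1, the signaling receptor for interleukin 1, was at 6.34, 6.79 and 6.70 in Rac1-/- glands and at 5.82, 4.26 and 5.78 in WT glands. Its groups did not overlap, and the log2 difference was 1.32 (SE 0.55, limma adjusted p = 0.946). Averaged over all Il1r1 probe sets the value was 0.22, so it rests on the probe set chosen, and without Nas483 (WT) it was 0.81. Tnfrsf11a, the receptor for the osteoclast factor RANKL that also drives alveolar growth in the mammary gland, was at 6.83, 6.81 and 5.39 in Rac1-/- glands and at 7.0, 7.44 and 8.62 in WT glands. All its Rac1-/- values lay below the WT values, with a log2 difference of -1.34 (SE 0.62, limma adjusted p = 0.946) that was -0.87 without Nas518 and -0.88 without Nas484. Tlr2, a receptor for bacterial lipoproteins named here after its values were seen, was the remaining gene without overlap, at a log2 difference of 0.53.

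Of 21 adaptors and kinases that carry the signal, 17 were measured, and 5 had a higher and 12 a lower mean in Rac1-/- glands. Their median was -0.21, with 0 past the adjusted threshold and 0 without overlap. Ikbkg, the regulatory subunit of the kinase that marks the inhibitors for destruction, was at 7.87, 7.27 and 8.77 in Rac1-/- glands and at 6.55, 7.57 and 7.26 in WT glands, a log2 difference of 0.84 (SE 0.54). Tbk1, a related kinase best known from antiviral signaling, was at 7.61, 5.58 and 7.34 in Rac1-/- glands and at 8.17, 8.46 and 6.71 in WT glands, a log2 difference of -0.94 (SE 0.70). Both genes overlapped between the groups, and each changed sign under another setting. Without Nas518 the Ikbkg value was 0.45, and without Nas497 the Tbk1 value was -0.31.

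The 15 measured genes among other subunits, inhibitors and feedback factors had 8 higher and 7 lower means and a median of 0.10. Rel, the subunit most used by lymphocytes and macrophages, was at 7.12, 8.07 and 7.94 in Rac1-/- glands and at 6.02, 4.49 and 7.72 in WT glands. The log2 difference of Rel was 1.64 (SE 0.79, limma adjusted p = 0.946), and Nas484 (WT) lay among the Rac1-/- mice. It was 0.84 without Nas483 (WT), the lowest mouse, and 2.46 without Nas484. Rnf11, which belongs to the Tnfaip3 ubiquitin-editing complex, was at 8.68, 8.55 and 8.60 in Rac1-/- glands and at 9.41, 9.14 and 9.08 in WT glands. Its groups did not overlap, with a log2 difference of -0.60 (SE 0.41, limma adjusted p = 0.946). Tnip2, a partner of Tnfaip3 named here after its values were seen, also lay wholly lower in Rac1-/- glands, at a log2 difference of -0.51.

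Tnf output is also set by the stability of its message and by shedding of the protein from the cell surface. Of 11 such genes 7 had a higher and 4 a lower mean, with a median of 0.12 and 0 without overlap. Mapkapk2, a kinase that stabilizes the Tnf message, had a log2 difference of 0.69 (SE 0.78), and Rhbdf1, a rhomboid-like protein that helps the sheddase mature, had 0.46 (SE 0.57). Zfp36, which destroys the Tnf message, and Adam17, the sheddase itself, were at 0.12 and 0.09 and were named after their values were seen.

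Among 21 measured further targets of NF-kappaB, 15 had a higher and 6 a lower mean in Rac1-/- glands, with a median of 0.38 and 0 past the adjusted threshold. Nos2, the inducible nitric oxide synthase, was at 3.30, 4.96 and 2.44 in Rac1-/- glands and at 1.87, 1.27 and 3.18 in WT glands, a log2 difference of 1.46 (SE 0.76, limma adjusted p = 0.946). Ccl20, a chemokine for dendritic cells and lymphocytes, was at 3.64, 5.11 and 5.95 in Rac1-/- glands and at 4.37, 2.48 and 3.72 in WT glands, a log2 difference of 1.38 (SE 0.72, limma adjusted p = 0.946). Both overlapped between the groups. Without Nas497 the Nos2 value was 0.76. Every Nos2 and every Ccl20 level lay below the median of all probe sets, 5.96 on the same scale. The Ccl20 value was 0.85 without Nas518 and 0.86 without Nas483 (WT). Bcl2l1, a survival factor of the Bcl2 family, was the 1 target without overlap, at a log2 difference of 0.55, and was named after its values were seen.

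Of 18 other adhesion genes, which were endothelial molecules, leukocyte integrins and their anchors, 11 had a higher and 7 a lower mean, with a median of 0.29. Itgb2, the beta chain of the leukocyte integrins that bind Icam1, was at 7.94, 8.33 and 7.72 in Rac1-/- glands and at 6.59, 6.96 and 6.82 in WT glands. Every Rac1-/- mouse lay above every WT mouse, and the log2 difference was 1.20 (SE 0.43, limma adjusted p = 0.946). The integrin chains Itgal (0.70) and Itgam (-0.14), named after their values were seen, overlapped between the groups. Madcam1, an endothelial molecule of lymphoid tissue, was at 4.91, 2.41 and 3.81 in Rac1-/- glands and at 4.94, 5.63 and 5.93 in WT glands. Here the Rac1-/- values lay below the WT values, by a narrow gap in the case of Nas496 and Nas478, and the log2 difference was -1.79 (SE 0.67, limma adjusted p = 0.946), or -1.14 without Nas497. Every Madcam1 level lay below the median of all probe sets, 5.96. The other genes without overlap, named after their values were seen, were the integrin chain Itgax (0.65) with higher values in Rac1-/- glands and the endothelial genes Icam2 (-0.66) and Jam2 (-0.38) with lower values. Of the 18 genes, 2 thus lay wholly higher and 3 wholly lower, beside 5.41% and 4.2% of all genes.

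**Figure D5:**
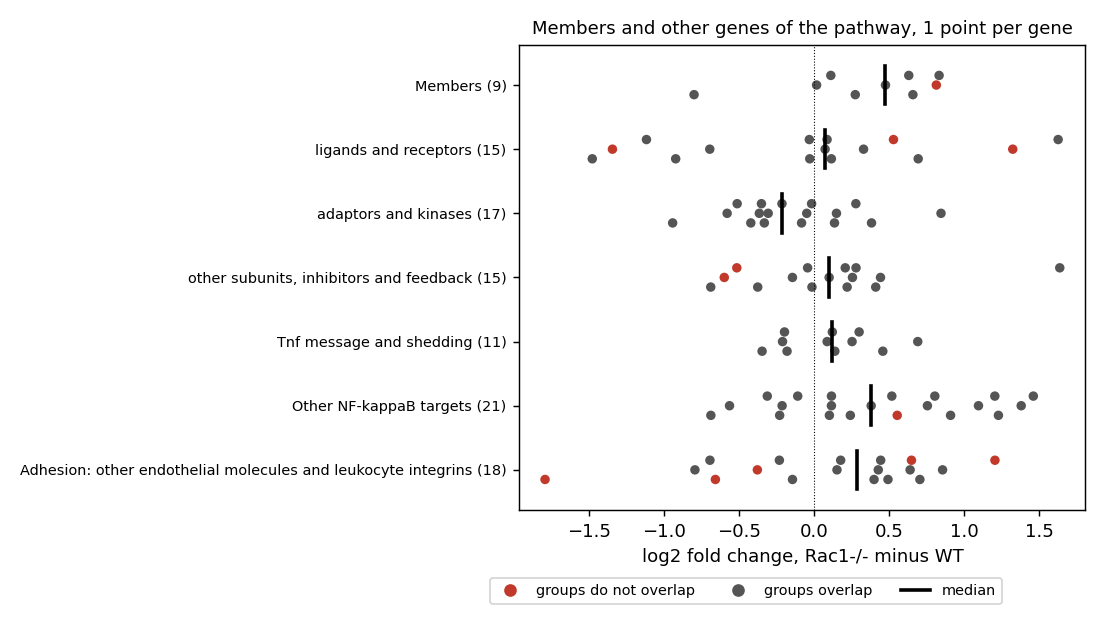
Log2 difference (x axis, Rac1-/- minus WT) of the 9 measured members and of the genes of 6 further lists, with 1 point per gene and the number of measured genes in brackets. Vertical bars are medians, which run from -0.21 for adaptors and kinases to 0.48 for the members, and red points are genes whose groups do not overlap.

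Markers of the cells that express these genes were read beside them. All 12 macrophage markers had a higher mean in Rac1-/- glands, with a median log2 difference of 0.66, and their summed linear intensity ran from 3903 to 9736 in Rac1-/- glands and from 2554 to 5411 in WT glands. Of 8 neutrophil markers 6 had a higher mean, with sums of 669 to 883 in Rac1-/- glands and 432 to 585 in WT glands. Of 9 B cell markers 6 had a higher mean, with sums of 999 to 1086 in Rac1-/- glands and 663 to 741 in WT glands. Of 8 myoepithelial markers 5 had a higher mean, with sums of 2703 to 4183 in Rac1-/- glands and 1732 to 2410 in WT glands. The sums of the neutrophil, B cell and myoepithelial markers were thus apart between the groups, as Icam1 was, and their part in the Icam1 values was not tested. The luminal sum, given below, was apart in the other direction. The brightest neutrophil marker, S100a8, had a log2 difference of -0.096, and the brightest B cell marker, Ms4a1, had 0.86. Both overlapped between the groups. The brightest myoepithelial marker, Acta2, was itself apart, at 10.87, 9.76 and 9.71 in Rac1-/- glands and 8.55, 9.67 and 8.40 in WT glands. The myoepithelial sum without Acta2 was not computed. Of 12 endothelial markers 6 had a higher and 6 a lower mean, with a median of -0.024 and sums of 1089 to 1919 in Rac1-/- glands and 1114 to 2563 in WT glands. The sums of the T cell, lymph node stroma, fibroblast, adipocyte and skeletal muscle markers overlapped between the groups. None of the markers in these lists was at the floor value of 1 in any mouse. After scaling to a common median the macrophage median was -0.090 (4 of 12 higher). The myoepithelial median was then -0.48 (2 of 8 higher), against 0.18 under quantile normalization. The signs of both medians thus depend on the scaling.

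The macrophage sum was highest in Nas496 (9736), followed by Nas518 (8204), and lowest in Nas484 (2554). Nas496 was also the highest mouse for 5 of the 9 members, and Nas484 the lowest for 4. Other members went another way, since Nas518 was the highest mouse for 1 (Nfkbie) and the lowest for 1 (Relb). Nas484 was the highest for Vcam1. Markers of the luminal epithelium, in which Cre acts, summed to 39467 to 50487 in Rac1-/- glands and 99015 to 137641 in WT glands, a sum in which milk protein genes such as Csn2 weigh most. Among its 10 genes the log2 difference was below 0 for 7 and above 0 for 3, with a median of -0.53. The keratin gene Krt18, named after its values were seen, went the other way, with every Rac1-/- mouse above every WT mouse and a log2 difference of 0.90, and Krt8 was at 0.87 with overlap. After scaling to a common median, 0 of the 10 luminal genes had a log2 difference above 0, and their median was -1.55. The direction of Krt18 and Krt8 thus depends on the scaling. The milk protein gene Csn2 was bright in every mouse of this tissue, and lay between 14.63 and 14.99 in Rac1-/- glands and between 15.55 and 15.96 in WT glands on the log2 scale. The part of cell content in the member values was not tested.

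For 5 members the genes with the most similar profile over the 6 mice were listed, among 9097 genes above the median mean, by the root-mean-square difference of log2 values centred on each gene. The closest to Tnf were Rbm4b (0.080) and Trnau1ap (0.080), and the closest to Tnfaip3 were Rpl12 (0.089) and Ndufa12 (0.11). For Nfkbia they were Hmgn3 (0.14) and Cnih4 (0.20), for Icam1 Larp7 (0.098) and Taf5 (0.11), and for Vcam1 Fam172a (0.20) and Rbpms (0.21). The median difference to all genes searched lay between 0.61 for Tnf and 0.97 for Nfkbia. With 6 points that share their arrays, these distances are descriptions.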

How the data were processed

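Glands of 3 Rac1-/- and 3 WT mice were measured. RNA was amplified with the Affymetrix Sensation kit for low-quality input and hybridized to Affymetrix mouse arrays. The authors deposited linear intensities, with the summary method not given in the sources used here. On every array the mean, after trimming 2% at both ends, was 100. Intensities were quantile normalized, floored at 1 and log2 transformed in limma 3.58.1 (R 4.3.3). Of 45101 probe sets, 34958 carry 1 symbol, 932 several and 9211 none. The symbols matched RefSeq by Entrez ID for 34754, and 0 differed. Where a gene had several probe sets (9012 of 18194 genes), the brightest on average was used, with no filter on dim genes. The groups were tested by lmFit and eBayes, with Benjamini-Hochberg adjustment over all genes, or over all 34958 probe sets for single probe sets, and a threshold of 0.05.

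The members, the lists and the rule for named genes were chosen with earlier results of these data known. The rule names the members, the 2 genes of each list with the smallest p, the brightest marker of a list and the nearest profiles. Groups come from the labels, the mice are separate animals, and 0 pairs of arrays held identical values. On simulated data for this comparison of 18194 genes, the test found 0 of 50 genes simulated at a log2 difference of 1, 0 of 50 at 2, 14 of 50 at 3 and 29 of 50 at 4, with 0 false calls. Alternatives left out mice, or used another scaling, probe set choice, filter, floor, prior, array weights or covariate. Nfkb1 was not analysed here.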

Additional observations from a re-analysis of the deposited data

How the results depend on the processing

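With every setting, 0 genes passed the adjusted threshold, also with every probe set on its own. At an unadjusted p under 0.05 the counts over all genes ran from 157 to 1154 higher and from 180 to 677 lower (405 and 332 as given), the 1154 without WT mouse Nas484. Of the members, 0 to 2 reached it. On the simulated data the test found 0 of 50 genes at a log2 difference of 1 and 0 of 50 at 2, so no member is shown to be alike in both groups. No paired analysis was possible because the labels give no replicate numbers. Recomputing the medians of the further lists under these settings was chosen after seeing the data. Why values moved was not tested.

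Tnf, Tnfaip3, Relb, Nfkbie and Icam1 kept their direction under every setting run on them. The median over the members stayed above 0, from 0.11 with a common median to 0.75, while the median of all genes was -0.13 with a common median and 0.34 without normalization. Leaving out 1 mouse, 6 to 8 members were higher and 1 to 3 lower in Rac1-/- glands. Without probe sets ending in _x_at, _s_at or _a_at, 5 of 6 measured were higher. The lower count was 3 with a common median, 0 of 6 measured above the median mean, and 2 with array weights, without Nas497 and Nas484, or with either covariate.

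With the actin covariate, Nfkb2 was at -0.30, Tbk1 at 0.55, Nos2 at -0.23, and the median at -0.73 for ligands and receptors, 0.21 for adaptors and kinases and -0.095 for other subunits. The groups did not overlap in the actin measure, so this fit cannot cleanly separate it from genotype. With the interquartile range as a covariate, Vcam1 was at -0.27, Tbk1 at 0.00083, Tnfaip3 1450829_at at 0.47, ligands and receptors at -0.53, adaptors and kinases at 0.055 and adhesion genes at -0.016. With a common median, Rela was at -0.47, Nfkbia at -0.23 (1438157_s_at at -0.0078, 1420088_at at -0.27), Rhbdf1 at -0.0052, ligands and receptors at -0.17, other subunits at -0.36, Tnf message and shedding at -0.59 and adhesion genes at -0.26. Without normalization, Tnfaip3 1450829_at was at 0.33 and Tnf message and shedding at -0.12. With the mean of all probe sets, Ikbkg was at -0.18, ligands and receptors at -0.028 and Tnf message and shedding at -0.16. Ligands and receptors were at -0.028 above the median mean and at -0.022 with a floor of 16. Array weights gave -0.15 for Rela and -0.047 for Nfkbie 1431843_a_at. Without Nas497 and Nas484, these were -0.17 and -0.040, and other subunits were at -0.031. Other subunits were at -0.012 without probe sets ending in _x_at, _s_at or _a_at.

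Leaving out each mouse in turn gave -0.44 to 0.34 for Rela, -0.16 to 0.61 for Vcam1, 0.0016 to 0.76 for Rhbdf1 and -0.063 to 1.19 for Mapkapk2. Among single probe sets it gave -0.73 to 0.22 for Tnfaip3 1450829_at, -0.64 to 2.29 for Nfkbia 1438157_s_at, -0.80 to 1.98 for Nfkbia 1420088_at, -1.53 to -0.27 for Nfkbia 1420089_at, 0.024 to 1.40 for Vcam1 1448162_at and -0.15 to 0.54 for Nfkbie 1431843_a_at. The medians ran from -0.40 to 0.39 for ligands and receptors, -0.098 to 0.10 for other subunits, -0.055 to 0.45 for Tnf message and shedding and -0.036 to 0.31 for adhesion genes.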
